A study of Mesocricetus auratus and Mus musculus with 214 samples.

Results

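The nuclear genes of oxidative phosphorylation were followed through male and female germ cells of golden hamsters (Mesocricetus auratus), in WT animals and in animals that lack 1 of the 4 PIWI genes. They were found by gene symbol. Among the 36133 genes measured, 69 carried a symbol of the Nduf, Sdh or Atp5 families, and complexes III and IV were not analysed here. The 69 comprised 39 complex I symbols, 8 complex I assembly factors (Ndufaf1 to Ndufaf8), the 4 subunits of complex II (Sdha to Sdhd) and 18 ATP synthase symbols. Ndufa4, counted here under complex I by its symbol, encodes a protein first assigned to complex I and later placed with complex IV.

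Oxidative phosphorylation takes place in the inner mitochondrial membrane. Complex I takes electrons from NADH and complex II, succinate dehydrogenase, takes them from succinate, and the proton gradient built by the chain drives ATP synthase, a rotary enzyme whose membrane ring of c subunits turns a central stalk inside a catalytic head. In the germ line mammalian oocytes carry a very large store of mitochondria and rely on them for ATP, while spermatids lose most of their cytoplasm and keep the remaining mitochondria wound round the midpiece of the sperm tail. In spermatocytes the X chromosome is silenced during pachytene.

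The study disrupted Piwil1, Piwil2, Piwil3 or Piwil4 with CRISPR/Cas9 in LVG Golden Syrian hamsters and measured RNA by Smart-seq2. Oocytes came from Piwil3-/- and WT females at the germinal vesicle (GV) stage (3 libraries each) and at metaphase II (MII, 4 each), with a further set of MII oocytes from Piwil2-/- (3), Piwil4-/- (2) and WT (3) females. Embryos of Piwil3-/- or WT females mated with WT males (maternal Piwil3-/- and WT embryos) were collected 11, 34 and 54 hours post egg activation (11 h, 34 h and 54 h; 5, 3 and 2 maternal Piwil3-/- and 5, 4 and 2 WT libraries), which are the one-, two- and four-cell stages of WT. Whole testes came from adult Piwil1-/-, Piwil2-/-, Piwil3-/-, Piwil4-/- and WT males and from Piwil2-/-, Piwil4-/- and WT males 3 days post partum (d.p.p.), with 2 libraries a group. Spermatocytes were sorted from Piwil1-/- and WT testes by Hoechst staining into spermatogonia and pre-leptotene (SPG/PL), leptotene and zygotene (LZ), pachytene (P) and diplotene (D) cells (3, 3, 4 and 4 Piwil1-/- and 4 WT libraries of each). From WT males 7 stages from spermatogonia to mature sperm were sequenced as well, with 2 libraries each. Mutant oocytes, testes and cells were homozygous for a frameshift in the gene named.

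In oocytes, embryos and sorted cells a level is the number of fragments per kilobase of gene set to 10000 reads of the ERCC spike-in RNA, in testes it is set to 1000 ERCC reads, and in the stage series it is FPKM. The first 3 therefore follow the RNA of a gene captured in a library and not its share of the RNA. A level may be compared between genes of 1 table but not across tables. Summed over all genes the libraries ranged over 22321 to 2714380 in oocytes and embryos, 42524 to 167457 in testes, 69606 to 621053 in sorted cells and 564810 to 684854 FPKM in the stage series. Reads that map to several places were counted by the authors, so a member with near-identical copies elsewhere may share reads with them. The highest member within each group was taken by mean over the libraries of a table, in the order ATP synthase, assembly factors, complex I and complex II. These were Atp5f1a, Ndufaf1, Ndufs4 and Sdhd in oocytes and embryos (188, 60.2, 305 and 344), Atp5f1b, Ndufaf3, Ndufa7 and Sdha in testes (103.1, 33.2, 34.9 and 22.95) and in sorted cells (356, 240, 241 and 106), and Atp5f1e, Ndufaf3, Ndufa4 and Sdhb in the stage series (1034, 163, 953 and 367 FPKM). The disrupted Piwi gene was lower in the mutant libraries without overlap in 13 of 15 checks. The exceptions were Piwil2 in Piwil2-/- MII oocytes (0.242 to 2.40, against 0.670 to 1.94 in WT) and Piwil1 in Piwil1-/- LZ cells (0.750 to 1.82, against 1.41 to 77.7 in WT LZ cells), where the WT libraries numbered 1 (28.3 and 77.7) stood apart from those numbered 2 (1.41 and 2.53). A difference below is the one fitted by limma on log2(level + 1), and a member was called at an adjusted p under 0.05 over all genes tested. Where nothing in the labels says that libraries of a group came from separate animals, the p-values measure the spread between these libraries, which may be technical. In such bulk samples fewer cells of a type and less RNA per cell cannot be told apart.

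The WT stage series shows how the members are used along spermatogenesis, and they did not move together. Complex I, complex II and ATP synthase subunits were abundant from spermatogonia to pachytene spermatocytes and dropped in round sperm, whereas Ndufaf3, an assembly factor of complex I, was most abundant in pachytene cells and stayed high in round sperm. Among the libraries of each stage the members made up 4.18 to 4.24% of all FPKM in spermatogonia, 4.68 to 5.37% in pre-leptotene, 4.06 to 4.34% in leptotene, 4.11 to 4.18% in zygotene and 3.24 to 3.497% in pachytene cells, then 1.24% in both round sperm libraries and 1.58 to 1.97% in mature sperm. Summed over the 4 subunits complex II held 1254 to 1303 FPKM in spermatogonia, 965 to 981 in pachytene cells, 137 to 186 in round sperm and 243 to 318 in mature sperm. The 8 assembly factors together held 327 to 331 FPKM in spermatogonia, 630.3 to 664 in pachytene cells, 505 to 519.6 in round sperm and 139 to 167 in mature sperm. Ndufaf3 carried this sum, since the other 7 together held 278 to 282 FPKM in spermatogonia, 178 to 188 in pachytene cells, 150 to 163 in round sperm and 74.8 to 76.3 in mature sperm. Of the 8 assembly factors 4 were lower and 1 higher in pachytene cells than in spermatogonia.

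**Figure D1:**
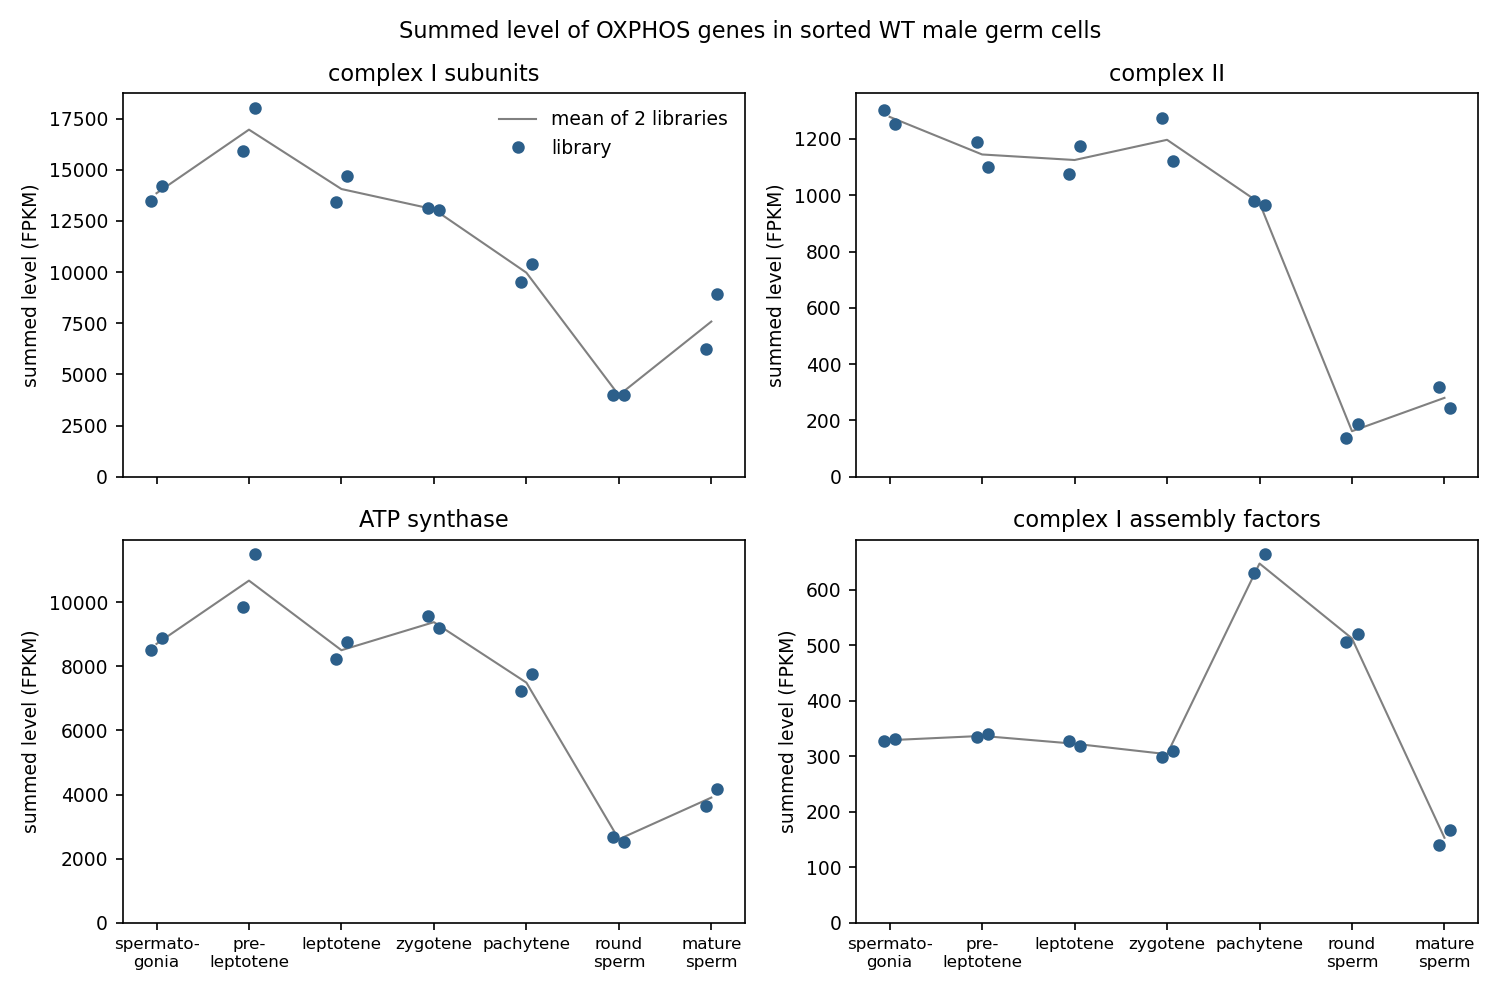
Summed FPKM of the complex I subunits, complex II, ATP synthase and the complex I assembly factors (1 panel each, y axis) over the 7 WT stages from spermatogonia to mature sperm (x axis). Points are libraries and lines join the means of 2 libraries. The sums of the first 3 groups drop in round sperm, while that of the assembly factors peaks in pachytene cells at 630.3 to 664 FPKM through Ndufaf3, without which it is 178 to 188 FPKM there and 278 to 282 FPKM in spermatogonia.

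In pachytene cells against spermatogonia 11 of 68 members tested were higher and 28 were lower, beside 24.1% and 45% of all genes. The median difference of the members was -0.16 and that of all genes -0.55. Ndufaf3 (NCBI gene 101843947), an assembly factor of the arm that holds the quinone site, had 443 and 487 FPKM in pachytene cells and 49.04 and 49.1 FPKM in spermatogonia (difference 3.22, SE 0.19, adjusted p = 1.2e-07). Ndufv3, a small subunit of the NADH-binding arm, had 72.9 and 76.5 FPKM in pachytene cells against 10.2 and 13.8 FPKM in spermatogonia (2.55). Both genes rose without overlap. Also higher in pachytene cells were Ndufs4, an accessory subunit (407 and 405 FPKM, against 125 and 113 FPKM in spermatogonia), and Atp5f1c (NCBI gene 101835321), the gamma subunit that forms the rotor shaft of ATP synthase (787 and 729.8 FPKM, against 253 and 244 FPKM). Atp5mc3, 1 of the genes for the c subunit, was higher by 0.92.

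Of the members that fell, Ndufb11 (NCBI gene 101828415), a membrane-arm subunit, had 1.697 and 1.28 FPKM in pachytene cells against 229.7 and 255 FPKM in spermatogonia (difference -6.62, SE 0.21, adjusted p = 3.7e-09). Ndufa4 had 85.1 and 103.4 FPKM in pachytene cells and 1528 and 1571 FPKM in spermatogonia (-4.03, SE 0.15, adjusted p = 8.9e-09). Ndufa1, a small membrane-arm subunit, had 114 and 117 FPKM in pachytene cells, against 559 and 591 FPKM in spermatogonia (-2.30). Ndufb11 and Ndufa1 are the 2 of the 50 members with a same-named mouse gene that lie on chromosome X in mouse, while the hamster position was not used here. The assembly factors Ndufaf4 (-1.89) and Ndufaf7 (-1.75) were lower too, as was Sdhb, the iron-sulfur subunit of complex II (234 and 245 FPKM in pachytene cells, against 660.1 and 621 FPKM in spermatogonia). The other 3 complex II subunits did not pass the test. Sertoli cell markers (7 of 8 genes) summed to 7.32 to 27.2 FPKM in pachytene cells and 37.6 to 112 FPKM in spermatogonia, and their part was not tested. Most of these sums was Clu (5.66 and 23.4 FPKM in pachytene cells, against 31.7 and 97.5 FPKM in spermatogonia).

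Most members had lower FPKM, a smaller share of the RNA, in round sperm than in pachytene cells. Of 69 tested 55 were lower and 6 higher, beside 41.4% and 40.8% of all genes, and the median difference was -1.62 against -0.06 over all genes. Lower were 16 of 18 ATP synthase genes, 30 of 39 complex I subunits, all 4 complex II genes and 5 of 8 assembly factors. The 3 genes for the c subunit, whose mature proteins are identical, were all among the 5 lowest. Atp5mc2 had 1.89 and 0.532 FPKM in round sperm and 172 and 219 FPKM in pachytene cells (difference -6.54, SE 0.26, adjusted p = 9.4e-09). Atp5mc3 had 7.68 and 7.94 FPKM in round sperm, against 305 and 305 FPKM in pachytene cells (-5.12). Atp5mc1 had 16.3 and 20.3 FPKM in round sperm, against 481 and 616 FPKM in pachytene cells (-4.83). All 3 lay lower in both round sperm libraries than in either pachytene library.

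Atp5f1c, higher in pachytene cells than in spermatogonia, had 23.1 and 41.7 FPKM in round sperm against 787 and 729.8 FPKM in pachytene cells (-4.56). Sdhc, a membrane anchor of complex II, had 6.002 and 14.9 FPKM in round sperm and 215 and 225 FPKM in pachytene cells (-4.39). Sdhd, the other anchor (-3.73), Sdhb (-3.25) and the flavoprotein Sdha (98.5 and 126 FPKM in round sperm, against 327 and 291 FPKM in pachytene cells, -1.46) fell with it. Against this trend Ndufa4l2, a paralog of Ndufa4, had 40.4 and 28.3 FPKM in round sperm and 0.746 and 0 FPKM in pachytene cells (4.72, SE 0.55, adjusted p = 1.2e-05), while Ndufa4 itself had 4.799 and 4.78 FPKM in round sperm. Ndufaf7 had 70.9 and 82.4 FPKM in round sperm and 15.2 and 12.9 FPKM in pachytene cells (2.37), and Atp5mk, a small membrane subunit of ATP synthase, 656 and 518 FPKM against 118 and 144 FPKM (2.15). Ndufb11 (11.1 and 7.81 FPKM in round sperm, against 1.697 and 1.28 FPKM in pachytene cells) and Ndufa12, a subunit of the matrix arm (141 and 162 FPKM, against 51.2 and 73.9 FPKM), rose as well.

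**Figure D2:**
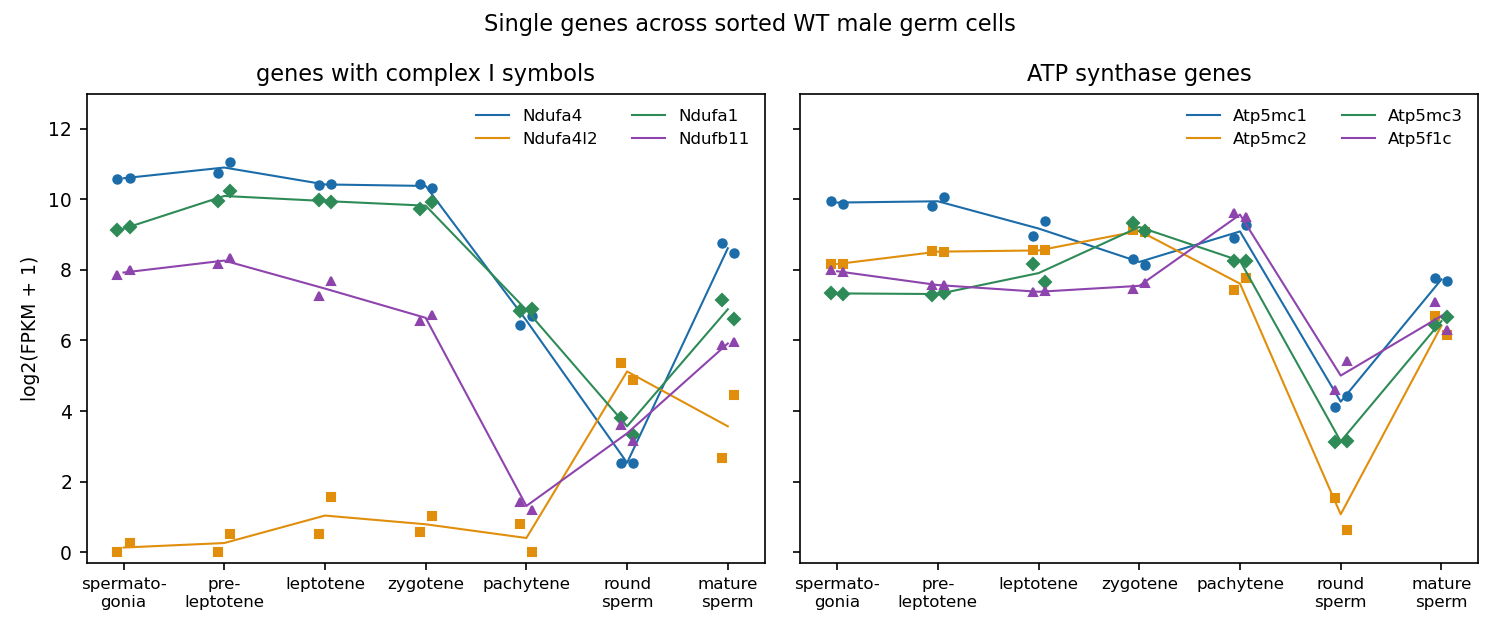
Levels of Ndufa4, Ndufa4l2, Ndufa1 and Ndufb11 (left) and of Atp5mc1, Atp5mc2, Atp5mc3 and Atp5f1c (right) over the 7 WT stages, as log2(FPKM + 1). Points are libraries and lines join the means of 2 libraries. The 3 c subunit genes and Atp5f1c drop together in round sperm, and Ndufa4l2 rises there to 40.4 and 28.3 FPKM.

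In mature sperm the counts of members lay near those of all genes. Against round sperm 34 of 69 members were higher and 20 lower, beside 46.5% and 31.8% of all genes (median 0.39, against 0.48 over all genes). Ndufa4 had 431 and 354 FPKM in mature sperm and 4.799 and 4.78 FPKM in round sperm (6.08, SE 0.15, adjusted p = 1.5e-09). Ndufa13, also known as GRIM-19, had 1723 and 4579 FPKM in mature sperm against 84.01 and 85.5 FPKM in round sperm (5.03). The c subunit genes Atp5mc2 (102 and 69.9 FPKM in mature sperm), Atp5mc1 (216 and 207 FPKM) and Atp5mc3 (a mean of 92.8 FPKM) were higher by 5.34, 3.47 and 3.41. In complex II the anchors and Sdhb were higher (Sdhd 2.58, Sdhc 2.33 and Sdhb 1.90), but Sdha was lower (-1.42). Lower too were 4 of 8 assembly factors, among them Ndufaf7 (-3.32), Ndufaf3 (63.1 and 92.2 FPKM in mature sperm, against 355 and 356 FPKM in round sperm) and Ndufaf2 (-1.93). Ndufs1, the largest subunit of complex I, had 19.2 and 13.99 FPKM in mature sperm and 81.7 and 91.5 FPKM in round sperm, and Ndufa4l2 5.37 and 21.1 FPKM against 40.4 and 28.3 FPKM. The call of Ndufa4l2 was lost without 1 round or 1 mature sperm library (-1.31 and -0.66), with a pseudocount of 0.1 and with only both groups fitted.

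The mature sperm libraries also held Ptprc, a marker of blood cells, at 9.0 and 13.6 FPKM against at most 0.218 FPKM in any other stage, and Sertoli cell markers (7 of 8 genes) summing to 113 to 128 FPKM, against 7.32 to 123 FPKM over the other stages. Most of this Sertoli cell sum was 1 gene, Clu, with 97.9 and 120 FPKM in mature sperm. Of the others Gata4 was higher than in spermatogonia (1.92 and 0.615 FPKM, against 0 and 0.117 FPKM) and Amh was lower (0 and 0.280 FPKM, against 0.634 and 2.34 FPKM). Germ cell markers summed to 55.6 to 57.7 FPKM in mature sperm, against 1459.6 to 1495 FPKM in round sperm. The part of other cells in the levels of mature sperm was not tested. Spermatid markers (3 of 6 genes) summed to 8806 to 18495 FPKM in mature sperm and 4246 to 6022 FPKM in round sperm. Of these only Prm2 was higher in mature sperm (8508 and 17967 FPKM, against 1888 and 3169 FPKM in round sperm). Tnp1 (284 and 505 FPKM, against 1809 and 2464 FPKM) and Spaca1 (14.5 and 22.6 FPKM, against 549 and 389 FPKM) were lower. Of 39 other assembly factors of the chain 17 were analysed. Of these 2 were higher and 7 lower in pachytene cells than in spermatogonia, 2 higher and 12 lower of 16 tested in round sperm than in pachytene cells, and 7 higher and 4 lower of 15 in mature sperm than in round sperm. Among 7 regulators tested of 9, such as Tfam, 1 was higher and 3 lower, 1 higher and 4 lower, and 3 higher and 2 lower in the same comparisons.

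Sorted WT spermatocytes, measured per ERCC read, gave the same question a scale that follows RNA per library. In WT P cells against WT LZ cells 57 of 68 members were higher and 5 lower, beside 81.8% and 6.96% of all genes, a median of 1.22 against 1.43 over all genes. When every library was set to the same total this direction flipped, with 10 higher and 40 lower and the median of all genes at -0.14. Members held 2.41 to 3.06% of the summed level in WT P cells and 3.65 to 4.65% in WT LZ cells. Genes that rose on both scales included Ndufaf3 (364, 374, 268 and 331 in WT P cells, against 25.6, 65.9, 6.96 and 10.4 in WT LZ cells, difference 4.05, SE 0.36, adjusted p = 1.6e-11). Ndufv3 had 39.1, 41.3, 30.6 and 40.7 in WT P cells and 3.64, 10.3, 0.978 and 1.53 in WT LZ cells (3.27). Atp5f1c had 346, 285, 327 and 355 in WT P cells and 69.2, 127, 20.3 and 30.04 in WT LZ cells (2.73). The WT LZ values of these genes are those of libraries 1A, 1B, 2A and 2B, and the 2 numbered 1, whose Piwil1 stood apart, were the higher ones.

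Ndufaf1, a chaperone of the membrane arm (2.26), and Ndufa9, a subunit at the junction of the arms (2.02), were also higher in WT P cells. Lower were Ndufa4 (17.9, 10.03, 24.4 and 22.3 in WT P cells, against 190.3, 123, 212 and 249 in WT LZ cells, -3.33), Ndufb11 (0.22, 0.215, 0.304 and 1.19, against 11.1, 6.95, 18.8 and 20.9, -3.32), Ndufa1 (37.7, 24.4, 50.3 and 35.99, against 142, 98.5, 163 and 208, -2.01) and Ndufa12 (-0.68). Ndufa4, Ndufb11 and Ndufa1 were lower at the pachytene stage in both tables. The complex II genes were higher per ERCC read (Sdha 1.53, Sdhc 1.39, Sdhd 0.60 and Sdhb 0.56) and each reversed at equal totals (-0.13, -0.26, -1.05 and -1.10). The other assembly factors were higher for 11 and lower for 1 of 16 tested.

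In WT D cells against WT P cells 18 of 68 members were higher and 6 lower, beside 57.2% and 9.16% of all genes (median 0.25, against 0.55 over all genes). At equal totals 4 were higher and 51 lower. Ndufaf7 had 38.8, 66.3, 67.3 and 68.2 in WT D cells and 12.4, 22.1, 11.4 and 17.7 in WT P cells (1.86, SE 0.20, adjusted p = 6.8e-09). Ndufa12 had 48.9, 75.4, 84.3 and 92.7 in WT D cells and 22.6, 16.4, 25.9 and 24.5 in WT P cells (1.69). Ndufa4l2 was at 3.47, 3.88, 8.08 and 8.73 in WT D cells, against 1.54, 1.32, 1.87 and 2.09 in WT P cells (1.30). These 3 are also among the genes that were higher in round sperm in the stage series. Ndufaf5, which modifies the subunit NDUFS7 (1.19), and Ndufaf3 (0.93) rose too, but Ndufaf3 was no longer called without WT P library 2A (0.82) or at equal totals (0.23). Ndufaf4 (0.496, 0.448, 0.674 and 0.82 in WT D cells, against 2.61, 2.74, 5.68 and 3.84 in WT P cells), Ndufa4 (7.799, 6.46, 5.83 and 9.66, against 17.9, 10.03, 24.4 and 22.3), Atp5mc3 (-0.57) and Ndufs3, a core subunit (-0.40, a call lost without D library 1B, 2A or 2B or P library 1A, 2A or 2B), were lower. Among the other assembly factors 8 were higher and 3 lower of 17. Spermatid markers (3 of 6 genes) summed to 3.62 to 54.8 in WT D cells and 4.64 to 59.7 in WT P cells, and their part was not tested.

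Loss of Piwil1, the main PIWI protein of pachytene spermatocytes, gave few calls among the members in sorted cells. The gene with the largest called difference was Atp5f1c, the gamma subunit of ATP synthase, which was higher in Piwil1-/- D cells. No member was called in SPG/PL cells (67 tested, 4 at an unadjusted p under 0.05 by limma, 0.0166% of all genes higher and 0% lower) or in LZ cells (68 tested, 12 at an unadjusted p under 0.05, 0% higher and 0.0172% lower). In SPG/PL cells all 67 differences were positive, with a median of 0.24 beside 0.20 over all genes (0.01 and -0.01 at equal totals). Without WT LZ library 2A 22 members were lower in Piwil1-/- LZ cells, beside 15.9% of all genes. In P cells 1 of 67 was higher and none lower, beside 2.51% and 0.304% of all genes, and in D cells 3 of 66 were higher and 1 lower, beside 8.42% and 1.89%.

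Atp5f1c had 709, 657, 799.6 and 721 in Piwil1-/- D cells and 300.4, 261, 292 and 269 in WT D cells (difference 1.36, SE 0.30, adjusted p = 0.0018). Every mutant library lay above every WT library, and the call held without each library in turn. In P cells the gene had 508, 434, 600.4 and 421 in Piwil1-/- cells and 346, 285, 327 and 355 in WT cells, again without overlap, but the difference of 0.57 did not pass over all genes (adjusted p = 0.55). The difference between the D and P effects was 0.79 (adjusted p = 0.87 by limma) and did not pass. In LZ cells Atp5f1c had 28.9, 33.4 and 31.7 in Piwil1-/- cells, against 69.2, 127, 20.3 and 30.04 in WT cells, and in SPG/PL cells 34.8, 40.4 and 36.6 in Piwil1-/- cells, against 24.1, 39.9, 39.01 and 34.1 in WT cells. These groups overlapped.

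Ndufb8, a membrane-arm subunit of complex I, had 417, 412, 450.3 and 462 in Piwil1-/- D cells and 281, 279, 298 and 314 in WT D cells (0.57, SE 0.16, adjusted p = 0.013). Atp5mc2 had 59.1, 76.4, 70.2 and 61.4 in Piwil1-/- D cells and 45.5, 44.8, 49.5 and 44.3 in WT D cells (0.52, SE 0.15, adjusted p = 0.016). It was the 1 member called in P cells as well, with 96.6, 89.8, 113 and 83.1 in Piwil1-/- cells and 68.3, 49.4, 74.6 and 71.8 in WT cells (0.54, SE 0.15, adjusted p = 0.038). Groups did not overlap in either, but the P call was lost without Piwil1-/- library 1A or 2A or WT library 1A or 1B (0.41 to 0.56), which left no member called, and the D call without Piwil1-/- D library 1B (0.46), which left 2 members called in D cells. Ndufaf5 had 18.7, 17.8, 19.5 and 23.8 in Piwil1-/- D cells and 19.5, 34.4, 34.1 and 38.3 in WT D cells (-0.60, SE 0.18, adjusted p = 0.029), with overlapping groups. With the mean of libraries A and B of a number as 1 sample (2 against 2), the differences of Atp5f1c, Ndufb8 and Atp5mc2 in D cells stayed at 1.36, 0.57 and 0.53 but no longer passed, and 1 of 4 members was called.

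**Figure D3:**
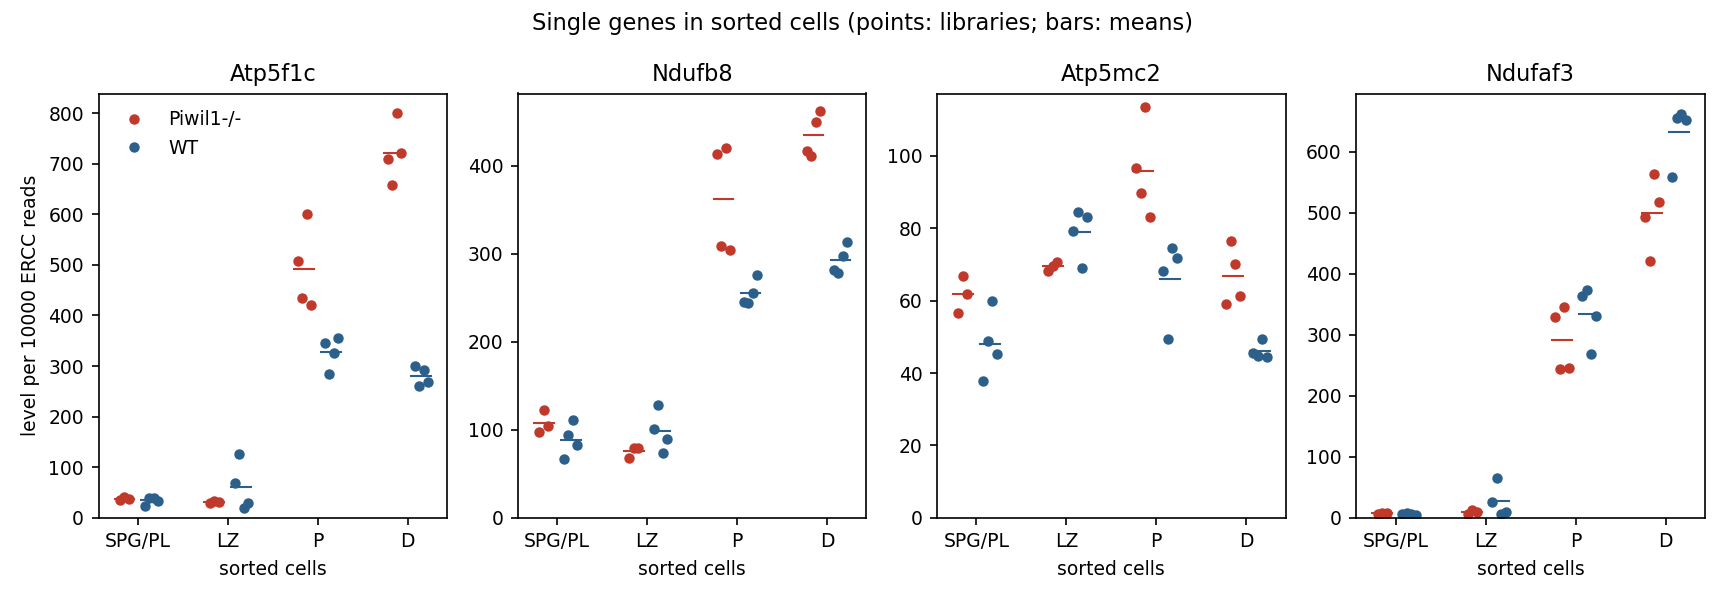
Levels of Atp5f1c, Ndufb8, Atp5mc2 and Ndufaf3 (1 panel each, level per 10000 ERCC reads on the y axis) in sorted SPG/PL, LZ, P and D cells, with Piwil1-/- libraries in red left of WT libraries in blue. Points are libraries and bars are means. In D cells the Atp5f1c values of Piwil1-/- cells lie between 657 and 799.6, all above those of WT cells.

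Ndufaf3, which is low in SPG/PL and LZ cells, reached 329, 244, 345 and 246 in Piwil1-/- P cells, against 364, 374, 268 and 331 in WT P cells, and 494, 421, 564 and 517 in Piwil1-/- D cells, against 559, 655, 663 and 653 in WT D cells. No difference of this gene was called. Summed over all members, Piwil1-/- and WT libraries held 8908 to 12278 and 8464 to 9846 in P cells and 11115 to 12933 and 10083 to 11873 in D cells. Spermatid markers (3 of 6 genes) summed to 0.184 to 1.06 in Piwil1-/- D cells, against 3.62 to 54.8 in WT D cells, and Sertoli cell markers (7 of 8) to 2.68 to 13.5, against 1.82 to 6.48. In P cells Sertoli cell markers summed to 14.8 to 49.1 in Piwil1-/- cells, against 2.54 to 17.2 in WT cells. Whether these cells took part in the differences was not tested. Of the other assembly factors Ecsit was higher in P and D cells and Ttc19, an assembly factor of complex III, was lower in D cells, of 16 tested.

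In whole adult testes Atp5f1c also had the largest increase of the members in Piwil1-/- animals. Of 67 members tested in Piwil1-/- testes 3 were higher and 10 lower, beside 7.24% and 28.7% of all genes (median -0.06, against -0.13 over all genes). At equal totals 27 were higher and 3 lower, with the median of all genes at 0.33. Atp5f1c had 89.7 and 129 in Piwil1-/- testes and 44.7 and 47.5 in WT testes (1.20, SE 0.22, adjusted p = 4.6e-04). Ndufb8 had 66.1 and 77.9 in Piwil1-/- testes and 39.6 and 38.9 in WT testes (0.85). Ndufa8, a subunit on the side of the intermembrane space, had 16.9 and 18.3 in Piwil1-/- testes and 11.8 and 10.8 in WT testes (0.60). The calls of Ndufb8 (0.74 to 0.97) and Ndufa8 (0.53 to 0.66) were lost without any of the 4 libraries, while that of Atp5f1c held without each.

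Atp5mk had 9.42 and 13.8 in Piwil1-/- testes and 40.2 and 41.6 in WT testes (-1.76, SE 0.29, adjusted p = 1.5e-04). Atp5mj, likewise a small membrane subunit of ATP synthase, had 9.79 and 7.08 in Piwil1-/- testes and 23.5 and 34.6 in WT testes (-1.66). Ndufa13 (11.3 and 7.27 in Piwil1-/- testes, against 22.5 and 28.2 in WT testes), Ndufaf2 (-0.97) and Ndufa12 (-0.96) were lower, and their calls were lost without WT library 2 (-1.22, -0.90 and -1.12), which brought the members called to 4. At equal totals Ndufaf2 (-0.51) and Ndufa12 (-0.46) were not called. Without WT library 1 there were 5 members called and without Piwil1-/- library 1 there were 7. Spermatid markers (3 of 6 genes) summed to 0.534 to 0.561 in Piwil1-/- testes and 849 to 1679.6 in WT testes, spermatocyte markers (5 genes) to 165 to 198 and 168 to 177, and Sertoli cell markers (7 of 8) to 288 to 293 and 141 to 185. The spermatocyte markers moved in opposite directions. Piwil1, the disrupted gene itself, had 14.3 and 21.6 in Piwil1-/- testes, against 37.3 and 35.6 in WT testes, and Spag6 0.775 and 1.98, against 15.6 and 16.8. Sycp3 was higher in Piwil1-/- testes (87.6 and 102.7, against 70.2 and 68.1), as was Sycp1 (19.5 and 19.9, against 17.2 and 16.5). Hormad1 had 43.2 and 52.3, against 37.1 and 31.3. These changes of cell makeup moved with the results above, and their part was not tested.

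Testes of Piwil2-/- and Piwil4-/- adults held less RNA of the members per ERCC read than WT testes and a larger share of it. The members summed to 1061 to 1149 in Piwil2-/-, 1007 to 1138 in Piwil4-/- and 1904 to 2139 in WT testes, which is 1.79 to 1.85%, 1.68 to 1.72% and 1.24 to 1.42% of the summed level of all genes. In Piwil2-/- testes 43 of 67 were lower and 1 higher, beside 64% and 20.2% of all genes (median -0.95, against -1.18), and in Piwil4-/- testes 43 were lower and 2 higher, beside 63.2% and 19.7% (median -1.09, against -1.14). At equal totals these counts turned to 11 lower and 26 higher in Piwil2-/- testes, beside 38.6% and 46.5% of all genes. In Piwil4-/- testes they turned to 15 lower and 25 higher, beside 38.1% and 45.7% (medians of all genes 0.25 and 0.20). The 2 comparisons share the WT testes. Germ cell markers (3 genes) summed to 23.6 to 35.6 in Piwil2-/-, 17.7 to 67.6 in Piwil4-/- and 382 to 404 in WT testes and Sertoli cell markers to 786 to 859, 765 to 1169 and 141 to 185, and their part was not tested.

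Ndufaf3 had the largest decrease in each. It had 7.52 and 8.39 in Piwil2-/-, 12.3 and 5.65 in Piwil4-/- and 86.5 and 78.98 in WT testes, differences of -3.23, SE 0.30, adjusted p = 1.6e-07 and -3.15, SE 0.30, adjusted p = 2.3e-07. Ndufs6, a zinc-binding subunit, had 5.26 and 4.69 in Piwil2-/-, 6.53 and 3.22 in Piwil4-/- and 41.7 and 35.7 in WT testes (-2.73 and -2.81). Ndufa7, the complex I gene with the highest mean over the testis libraries, had 12.6 and 14.7, 15.9 and 13.6 and 93.95 and 91.2 in the same order (-2.68 and -2.57). These genes were lower in mutants without overlap and stayed lower at equal totals.

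Atp5mj was lower in Piwil2-/- (-2.57) and Piwil4-/- testes (-2.52). Atp5f1e, the epsilon subunit of the central stalk, had 9.34 and 8.85 in Piwil2-/- testes, against 52.4 and 52.8 in WT testes (-2.41), and Ndufa12 5.05 and 4.38 in Piwil4-/- testes, against 36.01 and 28.6 in WT testes (-2.53). Sdha was lower per ERCC read (-0.90 in Piwil2-/- and -0.88 in Piwil4-/- testes) and reversed at equal totals (0.37 and 0.34). Atp5f1d, the delta subunit, was higher in each, with 38.6 and 38.8 in Piwil2-/-, 36.3 and 43.9 in Piwil4-/- and 26.5 and 23.2 in WT testes (0.62 and 0.67), although each call was lost without the second library of either group. Sdhd had 23.2 and 24.05 in Piwil4-/- and 19.2 and 14.9 in WT testes (0.46, a call lost without either Piwil4-/- library or WT library 2). Of the other assembly factors 8 of 16 were lower and 2 higher in Piwil2-/- testes and 8 were lower and 1 higher in Piwil4-/- testes, and the regulators Tfam and Polrmt were lower in each.

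Members were not called in adult Piwil3-/- testes (67 tested by limma, 7 at an unadjusted p under 0.05, beside 4.91% of all genes higher and 1.4% lower, and 1 called without WT library 2). Nor were they at 3 d.p.p. in Piwil2-/- testes (69 tested, 0 at an unadjusted p under 0.05, 0.197% of all genes higher and 0.201% lower) or Piwil4-/- testes (69 tested, 0, 0.14% and 0.163%). At that age the members summed to 828.8 to 839 in Piwil2-/-, 757 to 914 in Piwil4-/- and 626 to 1074 in WT testes, and without WT library 2 there were 3 members called in either mutant. In adult against 3 d.p.p. WT testes 49 of 67 members were higher and 1 lower, beside 67% and 15.8% of all genes (median 1.46, against 1.30), and at equal totals 20 were higher and 23 lower (median of all genes -0.37). Ndufaf3 had 86.5 and 78.98 in adult and 1.77 and 3.26 in 3 d.p.p. WT testes (4.61, SE 0.30, adjusted p = 3.3e-09), ahead of Ndufa7 (3.90), Ndufa2 (3.01), Ndufs6 (2.92) and Atp5mj (2.91). Sdha was higher by 0.95, which turned to -0.52 at equal totals. Ndufv1, the subunit that binds NADH, was the 1 member lower in adults (8.797 and 5.45 in adult testes, against 13.5 and 18.9 at 3 d.p.p., -1.10).

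In WT oocytes and embryos the members fell at maturation, reached their lowest level at the two-cell stage and returned at the four-cell stage. They summed to 21352 to 25146 in WT GV oocytes, 1145 to 1325 in WT MII oocytes, 982 to 1640.3 at 11 h, 228 to 534 at 34 h and 3059.9 to 3844 at 54 h, or 0.791 to 0.926%, 0.226 to 0.241%, 0.238 to 0.335%, 0.818 to 0.967% and 1.81 to 2.05% of the summed level of all genes. At these stages 1 read in a 1-kb gene was worth 0.894 to 1.23 (GV), 0.159 to 0.522 (MII and 11 h), 0.0102 to 0.0219 (34 h) and 0.0344 to 0.0900 (54 h), so that levels of this size rest on single reads, and such limits cover counting error only.

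Between GV and MII 67 of 68 members were lower in WT MII oocytes and none higher, beside 90.9% and 0.0746% of all genes (median -5.22, against -2.68, and 49 lower at equal totals, where the median of all genes stood at -0.84). Ndufa7 had 0, 0, 0.955 and 0 in WT MII and 406, 325 and 395 in WT GV oocytes (-8.31, SE 0.54, adjusted p = 1.1e-15). Atp5po, the peripheral stalk subunit also called OSCP, had 1.08, 4.95, 4.403 and 1.53 in WT MII and 887, 1086 and 917 in WT GV oocytes (-8.06). Ndufa4l2 was listed at 0 in all 4 WT MII oocytes and had 257, 219 and 347 in WT GV oocytes. Ndufs8, an iron-sulfur subunit near the quinone site (-7.34), and Ndufb11 (-7.32) fell as far. Sdhd was the exception in size, with 372, 409, 379 and 470.0 in WT MII and 943, 1088 and 962 in WT GV oocytes, a difference of -1.29 that turned to 1.03 at equal totals. The rest of complex II was lower too, with differences of -2.58 (Sdha), -4.18 (Sdhb) and -6.90 (Sdhc), but at equal totals that of Sdha was -0.29 and did not pass (adjusted p = 0.709 by limma). All 17 other assembly factors and the 6 regulators tested were lower too. The levels count RNA captured by Smart-seq2, and whether capture differed between GV and MII oocytes was not tested.

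From 11 to 34 h, when the embryo turns from maternal RNA to its own, members split. At 34 h 9 of 53 were higher and 32 lower than at 11 h in WT embryos, beside 6.35% and 86.2% of all genes (median -1.42, against -2.96). At equal totals 27 were higher and 14 lower, beside 19.2% and 62.1% of all genes, with the median of all genes at -2.15. Among those higher, Ndufs8 had 33.9, 45.3, 75.8 and 47.9 at 34 h and 1.89, 8.05, 8.42, 10.3 and 22.05 at 11 h (2.44, SE 0.50, adjusted p = 2.7e-05). Ndufa7 had 16.2, 19.1, 34.7 and 17.96 at 34 h, against 1.305, 6.62, 4.999, 3.15 and 14.2 at 11 h (1.92). Atp5mk was at 3.74, 3.74, 9.44 and 17.9 at 34 h and listed at 0 in all 5 libraries at 11 h, and Ndufc1 (2.77) and Ndufa2 (1.81), both accessory subunits, rose as well.

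Sdhd and Ndufs4 were among those that fell most. Sdhd had 0.0205, 2.17, 2.28 and 2.12 at 34 h and 417, 232, 224, 348 and 175 at 11 h (-6.80, SE 0.31, adjusted p = 8.7e-22). Ndufs4 had 1.76, 0, 0.0282 and 3.33 at 34 h, against 122, 174, 86.97, 128 and 138 at 11 h (-6.09). Atp5f1a, the alpha subunit of the catalytic head (-4.51), Sdhb (-4.37), Sdhc (-3.90) and Sdha (-3.23) fell with them, although at equal totals Sdha stood at -0.34 and did not pass (adjusted p = 0.536 by limma). By 54 h 56 of 64 members were higher than at 34 h and none lower, beside 40.9% and 4.3% of all genes (median 3.20, against 0.80; at equal totals 33 were higher and none lower, with the median of all genes at 0.29). The rise took in 17 of 17 ATP synthase genes and 31 of 36 complex I subunits. Ndufa8 had 93.9 and 64.1 at 54 h and 0.0163, 0.0277, 2.99 and 0 at 34 h (5.78, SE 0.81, adjusted p = 3.8e-07), with Sdhd (5.62), Ndufb7 (5.33), Ndufa5 (5.09), Ndufb9 (5.07), Sdhb (4.59) and Sdhc (3.47) also higher.

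With maternal loss of Piwil3 few members were called up to 11 h and more at 34 and 54 h. The study reports that embryos of the mutant females develop with a delay. Mutant and WT embryos of the same hour may therefore be at different stages. The part of this delay in the differences was not tested. In Piwil3-/- GV oocytes 1 of 69 was higher and none lower, beside 1.24% and 1.06% of all genes. This was Atp5pb, subunit b of the peripheral stalk, with 79.3, 73.5 and 93.3 in Piwil3-/- and 70.1, 13.3 and 2.38 in WT GV oocytes (2.45, SE 0.51, adjusted p = 0.0025), a difference that came to 1.37 and did not pass without WT library 4 and was not called either at equal totals (2.15), with a pseudocount of 0.1 or with only both groups fitted, while 2 members were called without WT library 3. The 3 WT values span a wide range. In MII oocytes 1 of 42 was higher and 1 lower, beside 2.93% and 1.75%. Ndufaf1 had 14.1, 16.4, 26.8 and 19.3 in Piwil3-/- and 8.01, 4.496, 7.62 and 8.89 in WT MII oocytes (1.28, SE 0.38, adjusted p = 0.042), and Ndufa9 had 6.12, 0.318, 3.53 and 6.03 in Piwil3-/- and 8.202, 17.2, 16.7 and 23.7 in WT MII oocytes (-1.98, SE 0.53, adjusted p = 0.023). The call of Ndufaf1 was lost without Piwil3-/- library 3 or 5 or WT library 1, 2 or 4 (1.10 to 1.33) and that of Ndufa9 without Piwil3-/- library 2 or WT library 2 or 5 (-1.94 to -1.43). Both calls were also lost with a pseudocount of 0.1, at equal totals and with only both groups fitted. Members called numbered 0 without WT library 2 and 1 without Piwil3-/- library 5 or WT library 4 or 5. Set against the other WT MII oocytes 1 was higher and 20 were lower, beside 10.3% and 22.2% of all genes. At 11 h no member of 49 was called by limma, with 9 at an unadjusted p under 0.05, beside 0.766% and 0.594% of all genes higher and lower. A single member was called without maternal Piwil3-/- library 5 or without the WT library titled 1-8PEA. Without both WT libraries titled 8PEA 3 members were lower and none higher, beside 3.49% and 6.5% of all genes.

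At 34 h the sum of the members was 81.6 to 108 in maternal Piwil3-/- embryos and 228 to 534 in WT embryos, 0.266 to 0.366% and 0.818 to 0.967% of the summed level of all genes. Of 59 members tested 5 were higher and 27 lower, beside 14.9% and 21.3% of all genes (median -0.92, against -0.02). At equal totals 7 were higher and 31 lower, beside 34.9% and 39.9% of all genes, whose median stood at -0.31. The counts by complex that follow are those of the main fit. Lower were 10 of 17 ATP synthase genes, 12 of 33 complex I subunits, 3 of 5 assembly factors and 2 of 4 complex II genes. Listed at 0 in every library were 9 members in maternal Piwil3-/- (3 libraries) and 3 in WT embryos (4 libraries). All genes summed to 22321 to 35158 in the mutant and 27070 to 55248 in the WT libraries. The share of all genes at 0 was not computed, so these counts are not read as a result about the members. Ndufs8 (NCBI gene 101833294) had 0.0154, 0.0081 and 0.0165 in maternal Piwil3-/- embryos and 33.9, 45.3, 75.8 and 47.9 in WT embryos (-5.61, SE 0.58, adjusted p = 6.8e-10). The mutant values are of the size of 1 read in a gene of 1 kb, and the groups did not overlap.

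Ndufaf1 had 0, 0 and 0.228 in maternal Piwil3-/- embryos and 9.97, 28.1, 17.99 and 12.98 in WT embryos (-3.99, SE 0.41, adjusted p = 4.8e-10). Atp5f1c had 0.0321, 0 and 0.0344 in maternal Piwil3-/- embryos, against 9.36, 29.3, 35.1 and 2.94 in WT embryos (-3.83). Ndufa4 had 2.43, 6.58 and 1.89 in maternal Piwil3-/- embryos, against 23.4, 56.02, 67.2 and 59.1 in WT embryos (-3.53). In Ndufa11, a membrane-arm subunit, WT embryos spread widely (0.547, 0.036 and 0 in maternal Piwil3-/- embryos, against 18.5, 24.2, 29.95 and 0.940 in WT embryos, -3.49). Sdha was lower (-1.19), and Sdhb was listed at 0 in all 3 mutant libraries and had 0, 5.46, 2.32 and 1.51 in WT embryos.

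Sdhd (NCBI gene 101825913) and Ndufs4 were among the 5 members that were higher at 34 h, a comparison that shares the WT embryos with that of 34 and 11 h above. Sdhd had 10.4, 11.7 and 12.5 in maternal Piwil3-/- embryos and 0.0205, 2.17, 2.28 and 2.12 in WT embryos (2.38, SE 0.35, adjusted p = 6.2e-07). Ndufs4 had 6.43, 3.38 and 7.46 in maternal Piwil3-/- embryos, against 1.76, 0, 0.0282 and 3.33 in WT embryos (1.80). Ndufb4, a membrane-arm subunit, had 3.87, 19.4 and 7.501 in maternal Piwil3-/- embryos, against 1.06, 0.0441, 0.0432 and 0 in WT embryos (2.95, SE 0.49, adjusted p = 6.9e-06). Sdhc had 3.66, 7.22 and 12.04 in maternal Piwil3-/- embryos, against 0, 2.75, 0 and 0 in WT embryos (2.51), and Ndufb3 0, 5.46 and 4.52, against 0, 0.222, 0.372 and 0.0234 (1.52, overlapping groups). Of the 4 complex II subunits 2 were called higher and 2 lower. With only both 34 h groups in the fit 3 members were higher and 16 lower, beside 8.35% and 12.55% of all genes. Among the members named, the calls of Sdha (adjusted p = 0.103 by limma), Sdhb (adjusted p = 0.133) and Ndufs4 (adjusted p = 0.0783) were lost there. Oocyte markers (6 genes), zona pellucida and secreted factors among them, summed to 79.7 to 187 in maternal Piwil3-/- and 5.67 to 33.4 in WT embryos. Most of the mutant sums was Gdf9 (110.3, 63.8 and 66.8 in maternal Piwil3-/- embryos, against at most 13.6 in WT embryos). Gdf9, Zp2 and Bmp15 were higher in the mutant libraries without overlap. For Zp1, Zp3 and Zar1 the groups overlapped. The granulosa and cumulus markers (5 of 6 genes) were listed at 0 in both. Neither the part of RNA kept from the oocyte nor that of delayed development was tested.

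**Figure D4:**
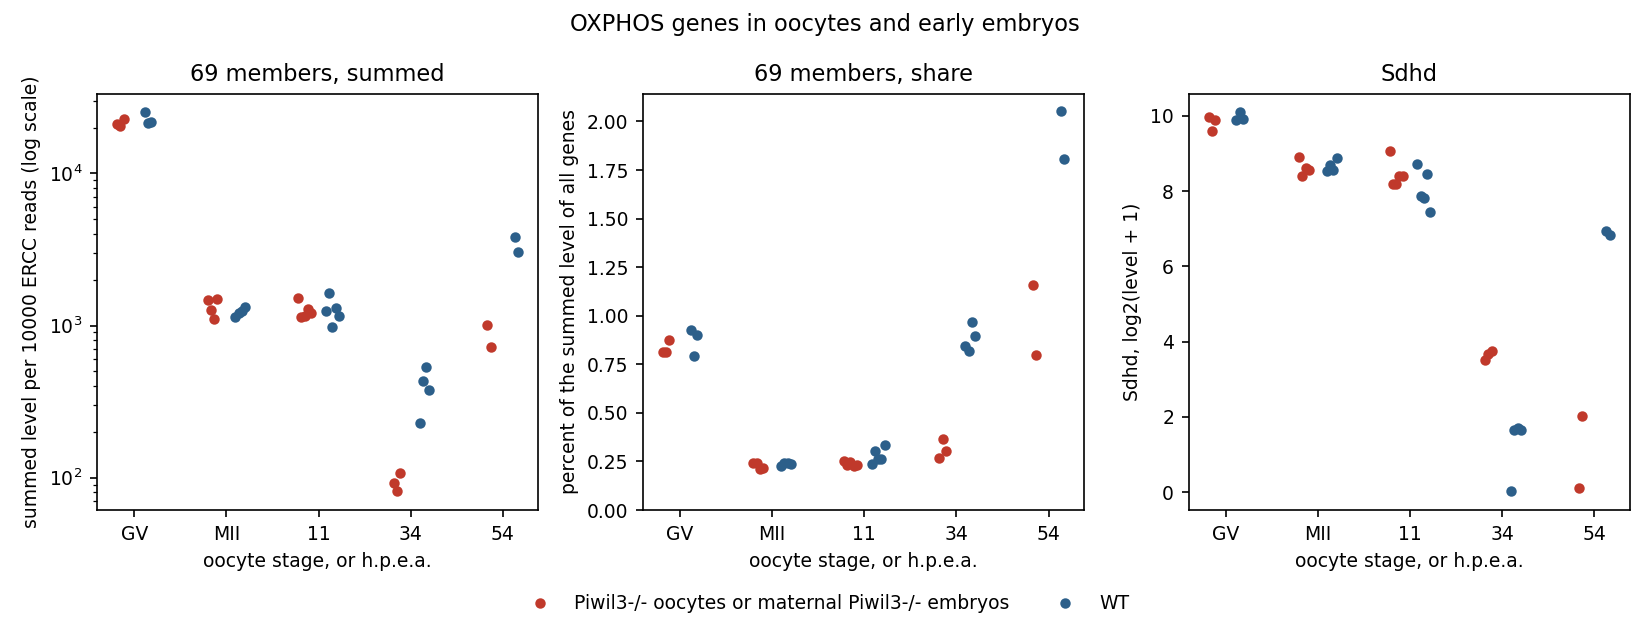
Summed level of the 69 members (left, log axis), their share of the summed level of all genes in percent (middle) and Sdhd as log2(level + 1) (right) in GV and MII oocytes and in embryos at 11, 34 and 54 h, with Piwil3-/- oocytes or maternal Piwil3-/- embryos in red left of WT in blue. Points are libraries. Sdhd is above WT at 34 h and below WT at 54 h.

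By 54 h the sum had returned to 722 to 1007 in maternal Piwil3-/- embryos, against 3059.9 to 3844 in WT embryos (0.801 to 1.16% and 1.81 to 2.05% of all genes). Of 68 members 49 were lower and none higher, beside 23.1% and 4.69% of all genes (median -2.66, against -0.46). At equal totals 26 were lower and 1 higher, beside 21.4% and 13.3% of all genes, whose median stood at -0.32. The counts by complex that follow are those of the main fit. Lower were 13 of 18 ATP synthase genes, 28 of 38 complex I subunits, 4 of 8 assembly factors and all 4 complex II genes. With 2 libraries a group the calls lean on the spread of the whole table, and none was made when these 4 libraries were fitted alone. Sdhd had 0.0823 and 3.08 in maternal Piwil3-/- embryos and 122 and 113 in WT embryos (-5.82, SE 0.45, adjusted p = 2.1e-12). Ndufb7, a subunit facing the intermembrane space, had 1.06 and 0 in maternal Piwil3-/- embryos, against 71.6 and 50.9 in WT embryos (-5.42).

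Ndufs5, an accessory subunit, had 0.595 and 0 in maternal Piwil3-/- embryos at 54 h and 40.3 and 45.1 in WT embryos (-5.11). Ndufb9, a membrane-arm subunit, had 1.95 and 0 in maternal Piwil3-/- embryos, against 60.5 and 52.7 in WT embryos (-5.06). Atp5pf, a coupling subunit of the peripheral stalk, had 2.67 and 0.725 in maternal Piwil3-/- embryos, against 52.9 and 60.6 in WT embryos (-4.52). In complex II Sdhb (-2.92), Sdhc (-2.40) and Sdha (-1.05) were lower, and without either WT library, or without mutant library 2 (Sdhc) or 4 (Sdha), the calls of Sdhc and Sdha were lost. At equal totals Sdha, Sdhb and Sdhc were not called either (-0.65, -2.05 and -2.90). Not all members were low, since Ndufs8 had 160.0 and 93.1 in maternal Piwil3-/- and 121 and 51.1 in WT embryos and Ndufa7 had 56.5 and 45.8 in maternal Piwil3-/- and 62.3 and 35.2 in WT embryos. Both were named after their values were seen, and both were higher at 34 than at 11 h in WT embryos. Of the other assembly factors 7 of 17 were lower and 1 higher at 54 h, and 5 of 10 lower and 1, Sdhaf2, higher at 34 h, where the regulators Tfam and Tfb2m were lower as well.

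The second set of MII oocytes held Piwil2-/- and Piwil4-/- oocytes beside their own WT group, a pairing taken here from the numbering of the labels. No member was called in Piwil2-/- oocytes (47 tested by limma, 5 at an unadjusted p under 0.05, beside 0.544% of all genes higher and 0.318% lower, and 1 called without WT library 2). Set against the other WT MII oocytes 17 were higher and 2 lower, beside 22.7% and 7.03% of all genes. In Piwil4-/- oocytes 17 of 51 were lower and 1 higher, beside 21.7% and 3.72% of all genes (median -0.97, against -0.40), and the members summed to 1058 to 1094 in Piwil4-/-, 1748 to 2091 in Piwil2-/- and 1676 to 1987 in WT oocytes. Sdhc had 2.66 and 1.25 in Piwil4-/- and 41.8, 24.1 and 26.8 in WT oocytes (-3.43, SE 0.74, adjusted p = 6.7e-04). Atp5f1a had 15.6 and 23.7 in Piwil4-/- and 174, 206 and 170.3 in WT oocytes (-3.18, SE 0.70, adjusted p = 8.5e-04).

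Sdha had 4.48 and 5.69 in Piwil4-/- and 26.96, 45.9 and 38.7 in WT oocytes (-2.63), and Sdhb was lower as well (-2.42). Of complex I Ndufb11 (-2.78), Ndufs8 (-2.75) and Ndufa10, a subunit related to nucleoside kinases (-2.69), were lower, and Ndufb9 was higher (2.26), with the calls of Ndufa10 and Ndufb9 lost at equal totals and with a pseudocount of 0.1. The other set of WT MII oocytes stood much lower for the same genes, with Sdhc at 3.38, 3.23, 0 and 0.425 and Atp5f1a at 59.6, 55.98, 30.2 and 55.8. Set against those oocytes, Sdhc was not lower in Piwil4-/- oocytes (0.34). There 3 members were called, 1 higher and 2 lower, beside 0.858% and 2.6% of all genes. The calls thus rest on which WT oocytes are the control. Without Piwil4-/- library 2 there were 7 members called and without library 4 there were 10.

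**Figure D5:**
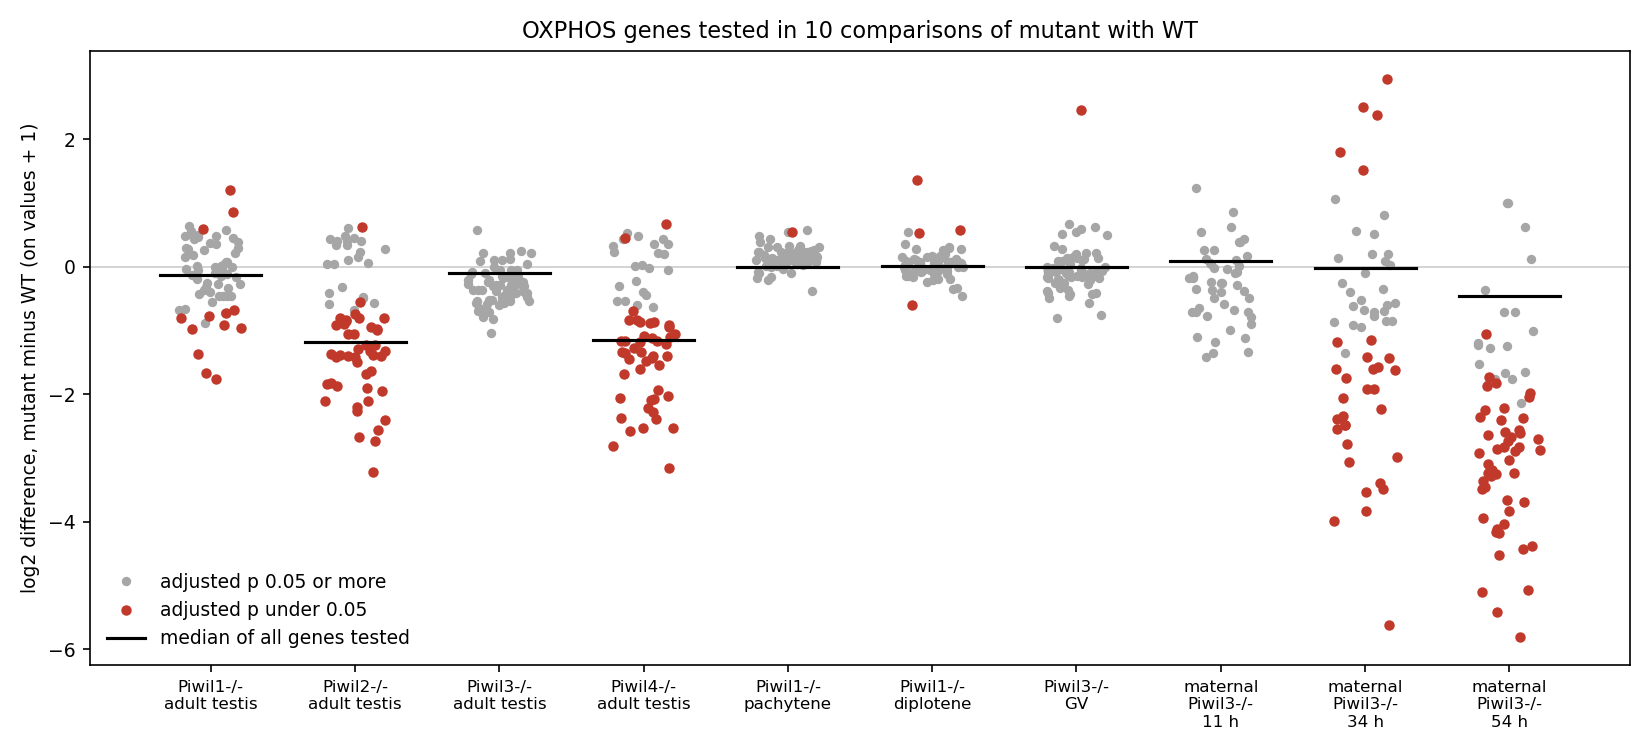
Differences in log2(level + 1) of the members tested between mutant and WT in 10 comparisons, 1 column each. Each point is a member, red at an adjusted p under 0.05, and the black bar is the median of all genes tested. Most members lie below the bar at 54 h and around 0 in Piwil1-/- D cells, with Atp5f1c at 1.36 above them.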

How the data were processed

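RNA-seq values were analysed in 4 tables, with 43 libraries of oocytes and embryos, 16 of whole testes, 30 of sorted spermatocytes and 14 of WT stages. A further 2 columns fitted no sample of the labels and stayed out. The authors built Smart-seq2 libraries with added ERCC RNA. Reads were trimmed (Trim Galore 0.5.0), aligned to the assembly BCM_Maur_2.0 (STAR 2.9) and assigned to genes (featureCounts 1.6.4), multiply mapped reads included. The deposited values of the oocyte, sorted cell and testis tables are a ratio, fragments per kilobase of gene to 10000 ERCC reads, with 1000 in place of 10000 in testes, numbers read from the size of the smallest values. Those of the stage series are FPKM as the authors made them. A level scaled to ERCC reads moves with the amount of RNA captured in a library. In a gene of 1 kb the value of 1 read was 0.0297 to 0.125 in testes, 0.0525 to 0.333 in sorted cells and 0.146 to 0.610 FPKM in the stage series.

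All 36133 gene IDs had a symbol, and members were matched by symbol. Complexes III and IV, the comparison of testis and somatic isoforms and promoter motifs were not analysed here. Groups follow the labels. By their stage label the 2 WT libraries titled 8PEA belong to the 11 h group. Genes were tested where 40% or more of the compared libraries exceeded 2 (0 where fewer than 5000 genes did so). The values were fitted as log2(value + 1) with limma 3.58.1 (lmFit, eBayes with trend) in R 4.3.3, with statmod 1.5.0 and the data.table package (1.17.8), over all groups of a table, adjusted by Benjamini-Hochberg within each of 26 comparisons. The procedure was tested on simulated data. Named are at most 5 members a direction and comparison, those with the largest called change and groups that do not overlap, with the called complex II genes, the most abundant member of each complex and members that the text says were named after their values were seen. The members named in this way are reported except for a single item, which is not reported here. The members, lists and rule were chosen with earlier results of these data known. In WT P against WT LZ cells same-numbered libraries deviated together (r = 0.121 to 0.184 over 4 pairs), and the fit with the replicate number as a block called the same number of members, 62. Alternatives were a pseudocount of 0.1, no filter, equal totals, a fit of the compared groups alone, the replicate block, the other WT MII set, leaving out the libraries titled 8PEA, the mean of libraries A and B, leaving out each library and, chosen after seeing the data, the WT LZ libraries numbered 2 alone. Plots were made in Python 3.11.15 with matplotlib 3.10.9, pandas 2.3.3 and numpy 2.4.6.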

Additional observations from a re-analysis of the deposited data

Results flagged for a closer look

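The effect of maternal Piwil3 loss turned between 34 and 54 h for 5 members, tested as the difference of the differences by limma over all genes. The change at 54 h minus that at 34 h was -8.20 for Sdhd (adjusted p = 1.3e-13), -6.89 for Ndufb4 (adjusted p = 2.1e-08), -5.64 for Ndufb3 (adjusted p = 2.5e-08), -5.04 for Ndufs4 (adjusted p = 4.0e-09) and -4.91 for Sdhc (adjusted p = 2.9e-04). These 5 were the members higher in maternal Piwil3-/- embryos at 34 h, so the values at that stage had chosen them. The same values enter the test, so its p-values cannot measure the turn free of that choice. At 54 h 49 of 68 members were lower and none higher. The 2 time points share no library. The part of delayed development in the turn was not tested.

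Of 104 groups of 4 to 10 libraries examined for the genes named, 12 had a library far from the others by Dixon's ratio. Chance gives about 1 in 20 only for normally distributed values, so these counts on raw levels cannot be set against that rate. A group at 0 in all but 1 library is always flagged, as for Ndufa7 in WT MII oocytes. In WT embryos at 34 h 1 of 4 libraries stood high for Ndufb4 (1.06), Sdhc (2.75), Ndufa7 (34.7), Ndufa8 (2.99) and Ndufa5 (0.210) and low for Sdhd (0.0205). Ndufc1 (0.652) and Ndufa2 (0.985) stood high in 1 WT library at 11 h, and Ndufa7 (0.955) in 1 WT MII library. In sorted WT cells Ndufaf7 (38.8) and Ndufaf3 (559) stood low in 1 D library and Ndufb11 (1.19) high in 1 P library.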

How the results depend on the processing

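Of 26 counts of members called, 22 stayed within 1.5 times the main count with a pseudocount of 0.1, 25 with no filter, 19 at equal totals, 18 with only the compared groups fitted and 21 of 23 with the replicate block. With a pseudocount of 0.1 the count was 0 in Piwil3-/- GV oocytes, 0 in Piwil3-/- MII oocytes, 10 in Piwil4-/- MII oocytes and 0 in Piwil1-/- P cells, and without the filter it was 1 in Piwil3-/- MII oocytes. At equal totals it was 0 in Piwil3-/- GV and 0 in Piwil3-/- MII oocytes, 27 in maternal Piwil3-/- embryos at 54 h, 8 in Piwil4-/- MII oocytes, 33 for WT 54 against 34 h, 30 in adult Piwil1-/- testes and 55 for WT D against P cells. With only the compared groups fitted it was 0 in GV oocytes, 1 in MII oocytes, 19 at 34 h and 0 at 54 h for Piwil3 mutants, 1 in Piwil2-/- MII oocytes, 7 in adult Piwil1-/- testes, 0 in Piwil1-/- P cells and 42 for WT D against P cells. Set against the other WT MII oocytes, 21 members were called in Piwil3-/-, 19 in Piwil2-/- and 3 in Piwil4-/- oocytes. Without the libraries titled 8PEA 3 were called at 11 h in maternal Piwil3-/- embryos. With the mean of libraries A and B there were 0 in Piwil1-/- P cells and 1 in Piwil1-/- D cells. With the WT LZ libraries numbered 2 alone both counts stayed within 1.5 times. The causes were not tested.

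With the replicate block 3 members were called in maternal Piwil3-/- embryos at 11 h and 0 in Piwil1-/- P cells, and no other count of members moved by over 1.5 times. Except for WT P against LZ cells, the numbers were not taken to pair the libraries. Same-numbered libraries of Piwil1-/- and WT LZ cells deviated against each other (r = -0.439 to -0.107 over 3 pairs). Those of WT D and P cells, however, deviated together (r = 0.0321 to 0.244 over 4 pairs, 3 of them over 0.1). In Piwil2-/- and WT testes at 3 d.p.p. r was 0.133. No paired analysis was possible because fewer than 2 numbers are shared in 3 comparisons (Piwil3 mutants in GV oocytes and at 54 h, and Piwil4-/- MII oocytes).

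Leaving out 1 library gave 0 to 2 members called in Piwil3-/- GV oocytes, 0 to 3 in Piwil3-/- MII oocytes, 0 to 1 in maternal Piwil3-/- embryos at 11 h, 0 to 1 in Piwil2-/- and 7 to 20 in Piwil4-/- MII oocytes, 4 to 10 in adult Piwil1-/- and 0 to 1 in adult Piwil3-/- testes, 0 to 3 in testes of Piwil2-/- and 0 to 3 in those of Piwil4-/- animals 3 days after birth, and 0 to 22 in Piwil1-/- LZ, 0 to 1 in Piwil1-/- P and 2 to 4 in Piwil1-/- D cells. Single members reversed in 10 cases. At equal totals these were Sdhd in WT MII against GV oocytes (1.03), Sdha in Piwil2-/- (0.37) and Piwil4-/- (0.34) adult testes and in WT adult against 3 d.p.p. testes (-0.52), and Sdha (-0.13), Sdhb (-1.10), Sdhc (-0.26) and Sdhd (-1.05) in WT P against LZ cells. Set against the other WT MII oocytes these were Ndufaf1 in Piwil3-/- (-0.56) and Sdhc in Piwil4-/- oocytes (0.34).

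The median of all genes moved by over 0.1 at equal totals also in Piwil3-/- MII oocytes (-0.01), maternal Piwil3-/- embryos at 11 h (-0.12), Piwil1-/- SPG/PL (-0.01) and LZ cells (0.08) and mature sperm against round sperm (0.18). Members with 1 group at 0 throughout have no fitted bound, and without them the median difference was -0.87 at 34 h in maternal Piwil3-/- embryos, -0.89 in Piwil4-/- MII oocytes, -5.09 for WT MII against GV and -1.45 for WT 34 against 11 h. Isoform ratios were not computed, so their alternatives were not run. Depth limits the members near the worth of 1 read, most of them in MII oocytes and at 34 h.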
